A study of Mus musculus with 10 samples.

Results

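Otx2, Fgf5, Pou3f1, Zic2 and Sox3 are 5 genes that rise when mouse embryonic stem cells (ESCs) leave the naive state, and they were followed here as nascent RNA over a course of Xist induction. They were chosen by name, all 5 were found among the 24386 genes of the count tables, and all 5 passed the filter on low counts that left 14525 genes for testing. The cells were TX1072, a female hybrid ESC line with one Mus musculus castaneus (Cast) and one C57BL/6 (B6) set of chromosomes, in which Xist on the B6 X chromosome sits behind a promoter that doxycycline (DOX) turns on. Nascent RNA was labelled for 5 min with 4-thiouridine at 0.5 mM (TT-seq, transient transcriptome sequencing) after 0, 4, 8, 12 and 24 h in DOX (1 µg/ml), with 2 replicates at each time and 10 libraries in all. All groups came from the same line, grown in serum with LIF and 2i, a pair of inhibitors of MEK and GSK3 that holds ESCs in the naive state. DOX was added 24 h after plating, so hours of DOX and hours in culture rose together, no later library was free of DOX, and their effects cannot be told apart. The study asked in this course how the X chromosome is silenced, and the question for these 5 genes is whether the cells begin to leave the naive state meanwhile.

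As background, naive ESCs resemble the epiblast before implantation. On release from 2i they pass through a formative state and later reach the primed state of the epiblast after implantation, losing naive transcription factors and gaining the genes described here. Otx2 is a homeodomain factor that redirects the pluripotency factor Oct4 to the enhancers of the formative state, Pou3f1 (Oct6) is a POU factor of the same transition, Zic2 is a zinc finger factor that binds enhancers of the primed state, Sox3 is an X-linked SOX factor of the epiblast and of neural progenitors, and Fgf5 is a secreted growth factor that is the classic marker of the epiblast after implantation.

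The 5 spans over which reads were counted, in mm10, differ in length and in how much of them is exon. Otx2 lies on chromosome 14 from 48657677 to 48667644 on the minus strand, and 40.7% of that span is exonic in GENCODE. Its GENCODE gene starts further upstream, at 48673819, so transcription from that start is counted in part only. Zic2 also lies on chromosome 14, from 122475384 to 122480328 on the plus strand, and is 58.2% exonic. Fgf5 spans 22.85 kb of chromosome 5, from 98254184 to 98277033 on the plus strand, of which 10.9% is exon and the rest intron. Pou3f1, on chromosome 4 from 124657646 to 124660655 on the plus strand, and Sox3, on chromosome X from 60891366 to 60893430 on the minus strand, are wholly exonic over 3.01 kb and 2.06 kb. All 5 are annotated as protein coding.

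RefSeq promoter sequence of the C57BL/6 reference (GRCm38.p6) was matched for 2 of the 5 genes, Otx2 and Fgf5. The 250 bases before the start of each deposited span are shown 5′ to 3′ on the strand of the gene, because Otx2 is the gene whose transcription changed and Fgf5 is the only secreted factor of the group. Capitals mark CG dinucleotides, which read the same on both strands. The Otx2 window is chr14:48667645-48667894 on the minus strand and the Fgf5 window is chr5:98253934-98254183 on the plus strand.
Otx2: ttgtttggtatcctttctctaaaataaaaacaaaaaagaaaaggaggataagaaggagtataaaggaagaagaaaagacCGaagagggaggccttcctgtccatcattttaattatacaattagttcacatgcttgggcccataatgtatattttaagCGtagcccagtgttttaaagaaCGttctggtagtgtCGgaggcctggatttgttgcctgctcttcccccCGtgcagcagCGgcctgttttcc
Fgf5: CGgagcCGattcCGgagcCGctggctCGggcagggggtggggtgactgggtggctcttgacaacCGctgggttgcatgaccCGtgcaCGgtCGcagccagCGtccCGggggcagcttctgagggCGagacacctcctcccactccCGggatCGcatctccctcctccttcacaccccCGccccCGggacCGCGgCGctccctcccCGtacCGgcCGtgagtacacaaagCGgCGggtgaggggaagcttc
The Otx2 window held 6 CG dinucleotides at a GC content of 42%, and the Fgf5 window held 24 at 70.8%. Over 32851 promoter windows of the same length the median was 6 CG dinucleotides, 92.1% held at least 1, and 49.6% held fewer than the Otx2 window against 88% for the Fgf5 window. RefSeq lists 4 starts for Otx2, and the other 3 windows held 8, 14 and 9.

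Each library held between 18809046 and 22274929 counted read pairs. Between 51.73% and 52.76% of them could be assigned to an allele, except in replicate 1 at 0 h, where the share was 49.22%. Xist had 32 and 31 read pairs at 0 h and between 6348 and 14211 in every DOX library, as the labels require. The labelled cell type was checked against 18 naive genes, of which 17 were tested. Nanog had the highest level of them at 42.1 ± 2 CPM (read pairs scaled to the size of the library) per kb (SD, n = 10 libraries), and Sox2 was listed at 0 in all 10 libraries. Why Sox2 had no counts was not tested, and this 0 is not read as absence of its transcription.

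Zic2 was well transcribed throughout, while the other 4 genes stood below the median of the tested genes. Levels between genes are given in CPM per kb of gene span, as means ± SD over the 10 libraries. Zic2 stood at 5.12 ± 0.539, above 90% of the tested genes. Pou3f1 followed at 0.784 ± 0.211, above 45.3% of them, and Otx2 at 0.468 ± 0.112, above 36.2%. Sox3 stood at 0.187 ± 0.0745 and Fgf5 lowest at 0.0471 ± 0.0107, above 24.2% and 11.6%. Zic2 exceeded Pou3f1, Otx2 exceeded Sox3 and Sox3 exceeded Fgf5 in 10 of 10 libraries, with ranges that did not overlap. Pou3f1 and Otx2 did not separate: Pou3f1 was higher in 9 of 10 libraries and their ranges overlapped. The median over the 18 naive genes, with Sox2 kept at 0, was 7.21 CPM per kb. That over 20 other genes of the formative network was 1.05, beside 0.988 over all tested genes.

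**Figure D1:**
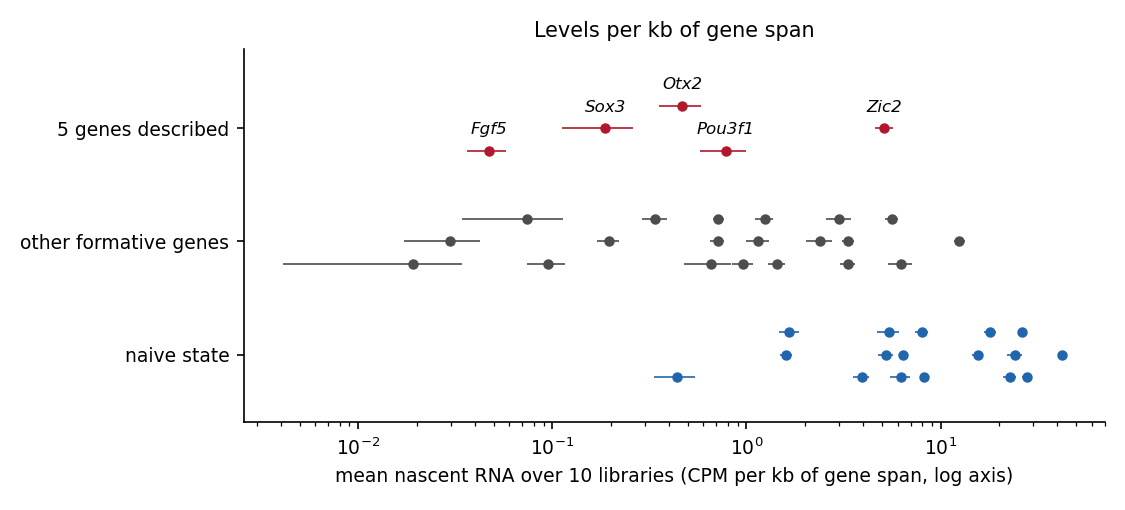
Mean nascent RNA over 10 libraries, in CPM per kb of gene span on a log axis, of the 5 genes described (red), 20 other genes of the formative network (grey) and the naive genes (blue); bars are ± 1 SD over libraries, vertical offsets within a row carry no meaning, and Sox2, listed at 0, is not drawn. Zic2 at 5.12 lies among the naive genes, and the other 4 lie from 0.0471 to 0.784.

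None of the 5 genes was called higher than at 0 h, and 1 of them, Otx2, fell. In edgeR's quasi-likelihood test, with an adjusted p under 0.05 taken as a change, 0 of the 5 had changed at 4, 8 or 12 h of DOX against 0 h, and 1 had changed at 24 h, downward. Of all tested genes 0.0207% passed at 4 h, 0.255% passed at 8 h, 1.06% passed at 12 h and 1.97% passed at 24 h, and 1.61% were lower at 24 h. Of the 234 lower genes 37 were autosomal, so the autosomal share is the nearer background for Otx2, and 0.264% of autosomal genes were lower at 24 h. At an unadjusted p under 0.05 there were 0 of the 5 genes after 4 h and after 8 h, and 1 gene, Otx2, after 12 h and after 24 h, where 1684 and 1490 of all 14525 tested genes stood. Of the other tools, limma voom, and DESeq2 among those it gave an adjusted p, also called 0 at 4, 8 and 12 h and 1 at 24 h. DESeq2 gave an adjusted p to 5, 2, 3 and 4 of the 5 genes at these 4 times. Its call of Otx2 at 24 h lay close to the threshold (DESeq2 adjusted p = 0.0483). With replicate number as a term in the model, edgeR also called Otx2 at 12 h, where 5.91% of all tested genes were called. The median log2 change of the 5 genes at 24 h was -0.37, beside 0.01 over all tested genes.

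**Figure D2:**
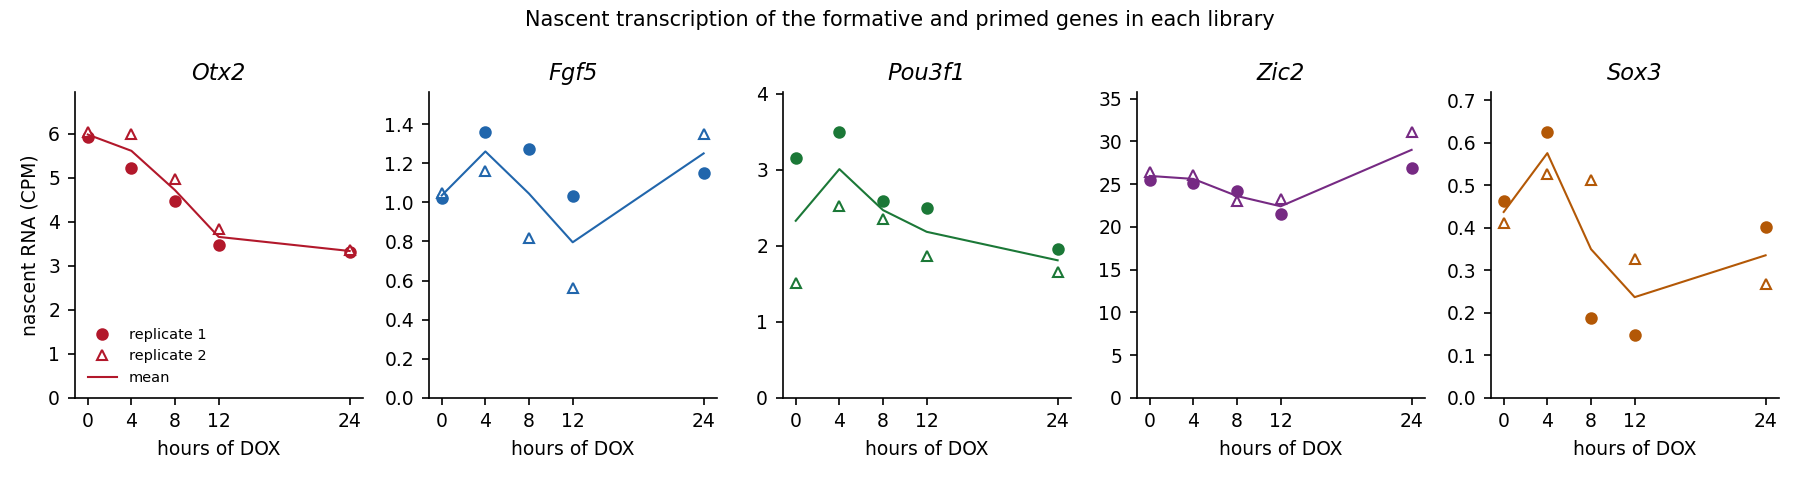
Nascent RNA in CPM (vertical axis, each from 0) against hours of DOX for each gene; filled circles are replicate 1, open triangles replicate 2, and lines join the means of the 2 replicates. Otx2 goes down from 5.98 to 3.34 CPM, Zic2 is highest at 24 h, and the 24 h points of Fgf5, Pou3f1 and Sox3 lie within the range of the other times.

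Otx2 had its highest mean at 0 h and its lowest at 24 h. In replicates 1 and 2, the 0 h libraries held 5.92 and 6.04 CPM, the 4 h libraries 5.22 and 6 CPM, the 8 h libraries 4.47 and 4.96 CPM, the 12 h libraries 3.48 and 3.83 CPM and the 24 h libraries 3.31 and 3.36 CPM, from 66 to 132 read pairs each. Both libraries of each of 8, 12 and 24 h lay below all 4 libraries of 0 and 4 h, and those of 12 h below those of 8 h. The mean fell from 5.98 ± 0.0842 CPM at 0 h to 3.34 ± 0.0358 CPM at 24 h (SD, n = 2). That is a log2 change of -0.84 (95% interval -1.21 to -0.47, edgeR adjusted p = 0.0135), or 1.79-fold lower.

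A slope fitted over all 10 libraries gave the same direction. For Otx2 it was -0.92 on the log2 scale per 24 h of DOX (95% interval -1.27 to -0.56, edgeR adjusted p = 0.00177), and Otx2 was the 1 gene of the 5 with a trend. Of all tested genes 3.04% had a trend and 2.18% a falling one, and of the autosomal genes 0.592% fell. In the test for a difference at any time Otx2 was again the 1 gene called (edgeR adjusted p = 0.037), against 1.45% of all tested genes. That call was lost with DESeq2 and limma voom (adjusted p = 0.0996 and 0.0536). It was lost too when edgeR p-values were adjusted over autosomal genes alone (0.17), and on leaving out any 1 library other than replicate 1 of 4 h.

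The slope of Otx2 passed in all 19 other settings in which it could be fitted, with adjusted p between 0.000204 and 0.0091, and the 24 h comparison did not. The 24 h call was lost when p-values were adjusted over autosomal genes alone (adjusted p = 0.0688), without replicate 1 or 2 of 0 h (0.0641 and 0.0605) and without replicate 1 or 2 of 24 h (0.119 and 0.124), at log2 changes that stayed between -0.86 and -0.83. With the replicate number as a term in the model, Otx2 was called already at 12 h, at a log2 change of -0.71 (adjusted p = 0.00393, and 0.064 without the term), where 5.91% of all tested genes were called. That model also called Otx2 at 24 h (edgeR adjusted p = 0.000294), where it called 852 of all 14525 tested genes.

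**Figure D3:**
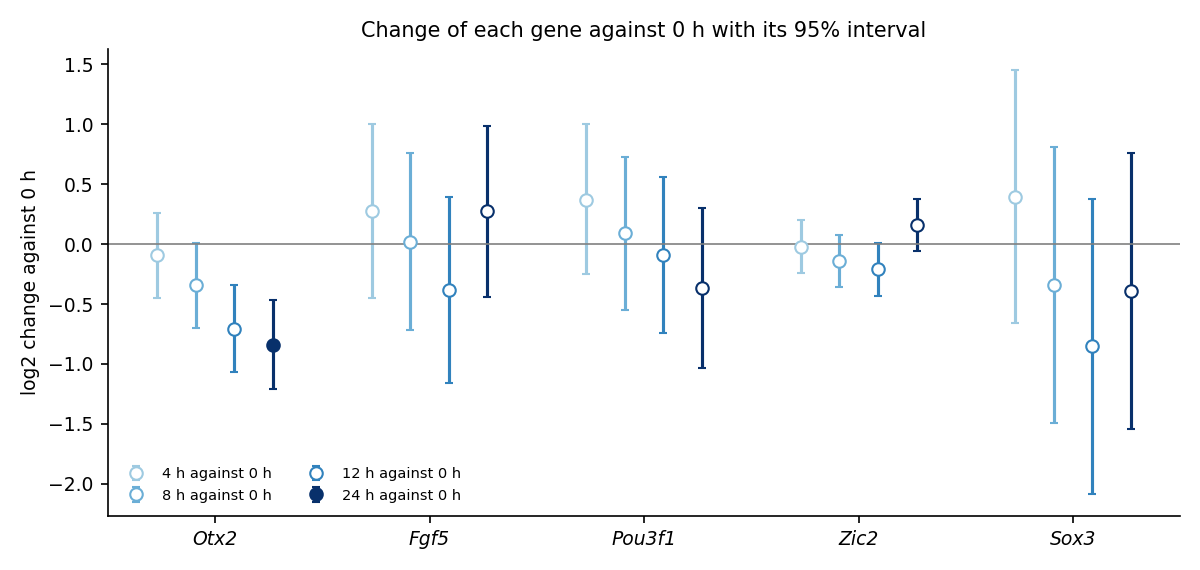
Log2 change against 0 h (vertical axis) of each gene at 4, 8, 12 and 24 h of DOX (light to dark blue), with 95% intervals from the edgeR fit; filled points have an adjusted p under 0.05. The only filled point is Otx2 at 24 h, at -0.84, and the interval of Sox3 at 12 h is the widest, from -2.09 to 0.38.

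Pou3f1 showed no change that the test could call. Replicates 1 and 2 of 0 h held 3.15 and 1.51 CPM, those of 4 h 3.5 and 2.52 CPM, those of 8 h 2.59 and 2.35 CPM, those of 12 h 2.5 and 1.87 CPM and those of 24 h 1.96 and 1.66 CPM, from 33 to 68 read pairs each. Replicate 1 lay above replicate 2 at all 5 times, and the 2 libraries of 0 h stood furthest apart and enclosed those of 8, 12 and 24 h. The log2 change at 24 h was -0.37 (95% interval -1.03 to 0.30, edgeR adjusted p = 0.791), so a rise above 0.30 lay outside the interval of this fit. Without replicate 1 of 0 h the log2 change was 0.26. Its sign therefore rested on that library, and so did the bound of 0.30. The slope was -0.54 per 24 h (95% interval -1.12 to 0.04, adjusted p = 0.433).

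Zic2 had its lowest mean at 12 h and its highest at 24 h, a difference that the model called only with replicate number as a term. Replicates 1 and 2 of 0 h held 25.5 and 26.4 CPM, those of 4 h 25.1 and 26.1 CPM, those of 8 h 24.2 and 23 CPM, those of 12 h 21.5 and 23.3 CPM and those of 24 h 26.9 and 31.1 CPM, from 438 to 694 read pairs each. The 2 libraries of 24 h lay above all 8 others, with replicate 2 well above replicate 1. Against 0 h the log2 change at 24 h was 0.16 (95% interval -0.06 to 0.38, edgeR adjusted p = 0.679), the tightest interval of the 5 genes. Against 12 h it was 0.38 (95% interval 0.16 to 0.59, adjusted p = 0.326).

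Between successive times, 0 of the 5 genes had changed in any step, and at an unadjusted p under 0.05 there were 0 from 4 to 8 h, 0 from 8 to 12 h and 1, Zic2, from 12 to 24 h. Of all tested genes 0% were called by edgeR from 4 to 8 h, 0% from 8 to 12 h and 0.0275% from 12 to 24 h. At an unadjusted p under 0.05 there were 341, 640 and 1303 of the 14525 genes in these 3 steps, and limma voom called 0, 0 and 1. Among the genes that it gave an adjusted p, DESeq2 called 8 of 8893, 1 of 14525 and 22 of 10301. Of the 5 genes, 1, 5 and 2 had such a p. With replicate number in the model Zic2 passed from 12 to 24 h at a log2 change of 0.37 (edgeR adjusted p = 0.0169), where 2.23% of all tested genes were called. In the same model it also passed for a difference at any time (adjusted p = 0.0316), which raised the count to 2 of the 5 genes against 7.41% of all tested genes.

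Sox3 and Fgf5 were too low for a change of moderate size to be seen. Sox3, the X-linked member, had 10 and 9 read pairs in replicates 1 and 2 of 0 h, 12 and 10 in those of 4 h, 4 and 10 in those of 8 h, 3 and 7 in those of 12 h, and 8 and 6 in those of 24 h. The libraries of 24 h lay below those of 0 h, and the low counts of 8 and 12 h came mostly from replicate 1. Its log2 change at 24 h was -0.39 (95% interval -1.54 to 0.76, edgeR adjusted p = 0.896), while the median over 502 tested X-linked genes other than Xist was -0.50.

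Fgf5, the ligand, had 22 and 23 read pairs in replicates 1 and 2 of 0 h, 26 and 22 in those of 4 h, 27 and 16 in those of 8 h, 21 and 12 in those of 12 h, and 23 and 30 in those of 24 h. At 24 h one library equalled the higher library of 0 h in reads and the other was above it. The log2 change at 24 h was 0.28 (95% interval -0.44 to 0.99, edgeR adjusted p = 0.885), so that the interval ran from a small fall to nearly a doubling.

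The alleles of the 5 genes were read where strain differences allowed it, and Otx2 came almost wholly from the Cast allele. Over the 10 libraries Otx2 had 31 B6 and 349 Cast read pairs, a B6 share of 8.16% (95% Wilson interval 5.81 to 11.3%). Such a share or a lower one was held by 0.579% of the 12255 autosomal genes with at least 100 allelic reads, whose median was 52.2%. Zic2 was even at 50.2% (46.2 to 54.1%, 624 allelic reads), and so was Fgf5 at 53% (45 to 60.8%, 151 reads). Pou3f1 leaned to Cast at 22.2% (13.2 to 34.9%) on 54 reads, and Sox3 had 1 B6 and 12 Cast reads. These intervals cover counting error only.

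The fall of Otx2 was seen in its Cast reads. These numbered 51 and 51 in replicates 1 and 2 of 0 h, 35 and 50 in those of 4 h, 32 and 35 in those of 8 h, 19 and 33 in those of 12 h, and 18 and 25 in those of 24 h. The B6 reads stayed between 1 and 5 in every library. In Cast reads alone, an analysis chosen after seeing the data, the slope was -1.39 per 24 h (edgeR adjusted p = 0.00642) and the log2 change at 24 h was -1.25 (adjusted p = 0.0812). The B6 reads alone were too few for Otx2 to be tested.

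The B6 share of Otx2 was higher at 24 h than at 0 h, short of the threshold. It was 1.92% and 7.27% in replicates 1 and 2 at 0 h and 18.2% and 16.7% at 24 h, on 52, 55, 22 and 30 allelic reads, and the 2 times did not overlap. The log2 change in the ratio of B6 to Cast reads was 2.06 at 24 h (95% interval 0.39 to 3.73, edgeR adjusted p = 0.354). It rested on few reads, with 1 B6 read in replicate 1 of 0 h, and was 1.41 without that library and 3.29 without replicate 2 of 0 h (adjusted p = 0.849 and 0.207). Zic2 changed by 0.03 (95% interval -0.72 to 0.79, adjusted p = 0.996). These 2 were the genes of the 5 with at least 10 allelic reads in every library, and 0 of them had a changed share at 4, 8, 12 or 24 h, where 0.353%, 1.69%, 2.15% and 2.63% of the tested genes did. At an unadjusted p under 0.05 there was 1, Otx2 at 24 h, where 979 of 11906 tested genes stood, and DESeq2 called 0.

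**Figure D4:**
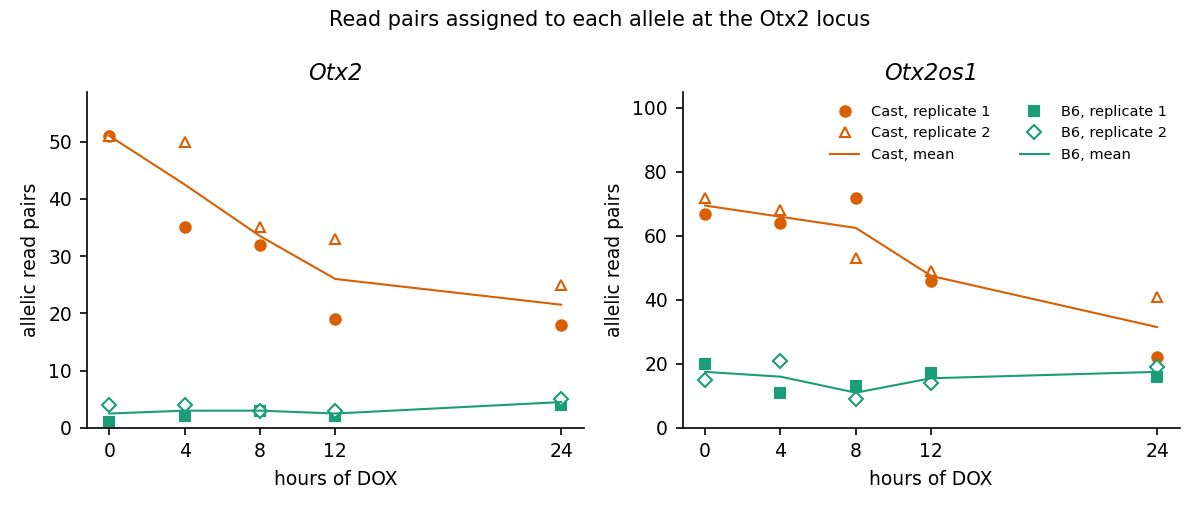
Read pairs assigned to the Cast (orange) and B6 (green) allele in each library against hours of DOX, for Otx2 (left) and its neighbour Otx2os1 (right); filled symbols are replicate 1, open symbols replicate 2, and lines join the means. Cast reads of Otx2 go down from 51 in both libraries of 0 h to 18 and 25 at 24 h, and its B6 reads stay between 1 and 5.

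The noncoding neighbour Otx2os1, looked up after the values of Otx2 were known, moved in the same way. It lies from 48669288 to 48793348 on the plus strand, 1.64 kb from the Otx2 span, and reads were counted by strand. Otx2os1 had a log2 change of -0.92 at 24 h (95% interval -1.27 to -0.56, edgeR adjusted p = 0.00511) and a slope of -1.07 per 24 h (adjusted p = 0.000406). The 24 h call was lost without replicate 1 of 24 h (adjusted p = 0.125). Its B6 share over all libraries was 21.9% (19 to 25.1%), and was 23% and 17.2% at 0 h against 42.1% and 31.7% at 24 h in replicates 1 and 2. The log2 change in its ratio of B6 to Cast reads was 1.14 (95% interval 0.29 to 2.00, adjusted p = 0.254).

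The other neighbours of Otx2 had shares nearer to even, and none was called. Within 600 kb, 5 further genes had at least 100 allelic reads. Their B6 shares ran from 44.7% for Tmem260, 143 kb away, to 52.8% for Naa30, and their log2 changes at 24 h ran from -0.01 to 0.16 with adjusted p of 0.726 or more. Zic5, the partner of Zic2 at 9.72 kb on the opposite strand, had a B6 share of 40% and a log2 change of 0.00.

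No other gene of the formative network was called. The list of 20 further genes, which holds the de novo DNA methyltransferases, ETS factors and epiblast regulators, had 19 tested genes, and 0 were higher or lower than 0 h at 4, 8, 12 or 24 h. At an unadjusted p under 0.05 there were 3 at 24 h, beside the 1490 of all 14525 tested genes. The median log2 change at 24 h was -0.14. Etv4, an ETS factor downstream of FGF signalling, had the highest value at 0.86 (95% interval -0.28 to 2.00, adjusted p = 0.672), at levels of 0.322 and 0.582 CPM at 0 and 24 h. Sall2, a zinc finger factor, had the lowest at -0.61 (95% interval -1.20 to -0.02, adjusted p = 0.462).

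Genes of the naive list, which also holds Pou5f1 and Sox2 that later states keep, were not called either. Of 17 tested naive genes, 0 had changed at 4, 8, 12 or 24 h against 0 h, and the median log2 change at 24 h was 0.00. At an unadjusted p under 0.05 there were 2 at 24 h, beside 1490 of all 14525 tested genes. Tet2, a DNA demethylating enzyme, was highest at 0.30 (95% interval 0.11 to 0.49, edgeR adjusted p = 0.14), and Gbx2, a homeodomain factor of the naive state, was lowest at -0.44 (95% interval -1.06 to 0.17, adjusted p = 0.7). The summed level of the naive list was 3959 CPM at 0 h and 4081 CPM at 24 h, within a range of 3865 to 4403 CPM over the 10 libraries.

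The 14 genes of the exit machinery, which holds the repressor Tcf7l1, the Flcn complex and the ERK cascade, were all tested and 0 had changed. Their median log2 change at 24 h was 0.06, from -0.10 for Tsc2 to 0.33 for Nprl2, and 0 had an unadjusted p under 0.05. Of 12 ERK target genes, which the MEK inhibitor of 2i holds down, 8 were tested and 0 had changed, with a median of 0.14. At an unadjusted p under 0.05 there was 1 at 24 h, beside 1490 of all 14525 tested genes. Dusp6, an ERK phosphatase and feedback inhibitor, was highest at 0.25 (adjusted p = 0.819), and Dusp4, of the same family, was lowest at -0.46 (adjusted p = 0.606).

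Genes of other cell types were low and gave 1 call. Of 16 genes of the early lineages, 11 had a mean under 1 CPM, Sox1 was listed at 0 in all libraries, and 0 of the 8 tested had changed. At an unadjusted p under 0.05 there was 1 at 24 h, beside 1490 of all 14525 tested genes. Their summed level was 26.9 CPM at 0 h and 22.1 CPM at 24 h, with Sox7 highest at 1.09 (adjusted p = 0.554) and Cdx2 lowest at -0.72 (adjusted p = 0.679). The 10 fibroblast genes summed to between 3.61 and 6.89 CPM, with Lum and Postn at 0 throughout, and the 10 genes of cells resembling the 2-cell embryo to between 3.09 and 6.27 CPM. In these lists 0 of 5 and 0 of 6 tested genes had changed, with 0 and 0 at an unadjusted p under 0.05 at 24 h, and the extremes were 0.41 for Col6a1, -0.85 for Twist1, -0.07 for Zfp352 and -0.53 for Zscan4f.

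Of 10 trophoblast genes, which share Eomes with the lineage list, 7 were tested and 1 had changed at 24 h, where 1.97% of all tested genes were called. Tfap2c, an AP-2 factor that ESCs also express, fell from 15 ± 1.48 to 9.08 ± 1.05 CPM (SD, n = 2), a log2 change of -0.72 at 24 h (SE 0.136, edgeR adjusted p = 0.00572). The call was lost without replicate 2 of 0 h (adjusted p = 0.0629) or replicate 1 of 24 h (0.122). The summed level of the trophoblast list, of which Tpbpa was at 0 throughout, was 20.2 CPM at 0 h and 14.7 CPM at 24 h, Tfap2c included. The highest tested value was 0.48, for Eomes, and the lowest -1.13, for Plac1. The part of other cells in the fall of Otx2 was not tested, and in bulk RNA fewer transcribing cells and less RNA per cell cannot be told apart.

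**Figure D5:**
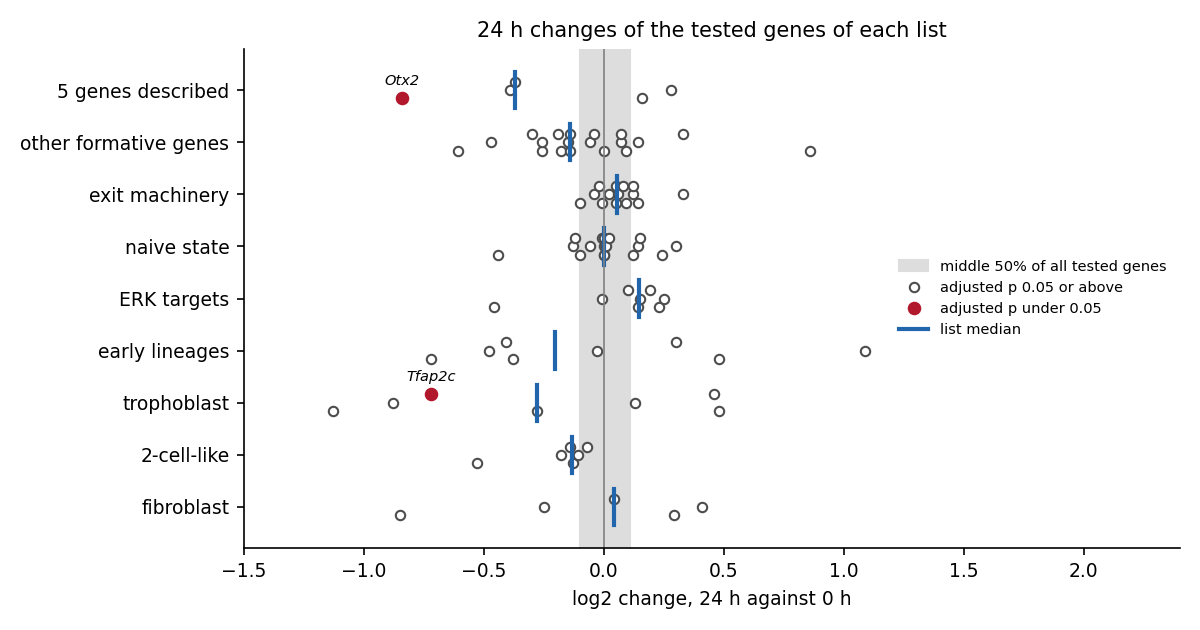
Log2 change from 0 to 24 h (horizontal axis) of the tested genes of each list (rows); red points have an adjusted p under 0.05, blue bars are list medians, and the grey band holds the middle 50% of all tested genes. The red points are Otx2 at -0.84 and Tfap2c at -0.72; Otx2os1 is in no list.

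The genes whose levels tracked each member most closely were picked by Pearson's r of log2 CPM over the 10 libraries, among 12879 tested genes with a mean of at least 1 CPM. For Otx2 they were Fermt1 (r = 0.990), an adaptor of integrins, and the X-linked genes Apex2 (0.988) and Dgkk (0.980), which all fell at 24 h, by log2 changes of -1.47, -0.93 and -1.75. Otx2os1 ranked 86 with r = 0.916. For Pou3f1 they were Zswim8, Col4a2 and Raet1a (0.954 to 0.915), for Zic2 1110038B12Rik, 4930539J05Rik and Supt4a (0.908 to 0.900), for Sox3 Ppp1r3b, Aldoc and Bola1 (0.937 to 0.895), and for Fgf5 Pygo1, Gmppb and Vax2 (0.890 to 0.872). With so many candidates over 10 libraries that share depth and hours, these values describe likeness only. Among the 5 genes themselves r ran from -0.39 for Pou3f1 and Zic2 to 0.63 for Otx2 and Sox3.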

How the data were processed

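The authors trimmed reads with Cutadapt, aligned them with STAR to mm10 masked at strain differences, kept unique properly paired alignments, split them by allele with SNPSplit and counted read pairs by strand with featureCounts 1.5.1 over the longest span of each gene, introns included. The submitters' processing notes also list TopHat2 2.1.0 and bedtools. The deposited tables hold raw counts of all, B6 and Cast read pairs per gene and a deposited fraction, B6 over allelic counts, which matched the counts. Spike-in RNA was not used here, so values are relative to each library. Coordinates are those of mm10, counted from 1.

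Total counts were tested in edgeR 4.0.16 (R 4.3.3; filterByExpr, TMM, robust quasi-likelihood fit of all 10 libraries with time as a factor, or hours as a number for the slope), with Benjamini-Hochberg adjustment over 14525 genes. CPM used TMM-scaled library sizes, and likeness used log2(CPM + 0.5). B6 shares were tested in edgeR on B6 and Cast counts with an intercept per library, for the 11906 genes whose allelic reads numbered 10 or more throughout. DESeq2 1.42.0 and limma 3.58.1 were alternatives. With 2 libraries against 2 an exact permutation test cannot go below 0.333, so none was used. On simulated counts of 14525 genes the 24 h test recovered 67% of genes changed by 0.8 and 89% of those changed by 1.5 on the log2 scale. The simulation gave every gene the same spread, drew the changed genes from all levels and held no replicate effect. These rates therefore do not say how often such a change would be found in the 5 genes described.

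Libraries with the same replicate number deviated together between times (r from 0.142 to 0.281 over 10 pairs of times). The number was therefore taken to pair libraries. The main fit still held no such term, so its intervals and p-values leave the pairing out. The fit with the number as a term is given where it changed a call and for Otx2 at 24 h. The study calls its replicates biological duplicates where it shows average silencing; the labels do not say how they were grown apart, and p-values measure the spread between these libraries. Lists were described by counts and medians. The 5 genes, the lists and the alternatives were chosen with earlier results of these data known. Named genes were the 5 members, Xist, in each list every gene past the threshold against 0 h and otherwise the highest and lowest at 24 h, and the 3 genes most alike to each member; Otx2os1 and the other neighbours, the single levels of Nanog and Sox2 and the genes at 0 were added after values were seen.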

Additional observations from a re-analysis of the deposited data

How the results depend on the processing

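Depth limits Sox3 (3 to 12 read pairs a library) and Fgf5 (12 to 30) most. The slope of Otx2 kept its direction and call under all 19 alternatives in which it was tested. In B6 reads alone 0 of the 5 genes had a trend, but Otx2 was not tested there and could not be called. The count of genes changed at 24 h, 1 in the main analysis, was 0 with separate adjustment of X-linked and autosomal genes. It was also 0 in Cast reads alone, where 2 of the 5 genes were tested. In B6 reads alone it was 0 too, but Otx2 was not tested there and could not be called. The allele-specific fits were chosen after seeing the data. The count at any time, also 1, was 0 with DESeq2, limma voom, separate adjustment, Cast reads or B6 reads. For Cast and B6 reads the same limit on the tested genes holds. The call of Otx2 at any time was also lost on leaving out any 1 library other than replicate 1 of 4 h. The count was 2 with the replicate block, which also gave 1 at 12 h and 1 from 12 to 24 h, and changed no other call. The fall of Otx2 was larger in Cast reads alone, at a slope of -1.39 per 24 h against -0.92 in total counts. The cause of these differences was not tested. Genes short of the threshold changed sign in some settings. Leaving out 1 library gave, at 4 h against 0 h, -0.20 to 0.00 for Otx2, -0.07 to 1.00 for Pou3f1 and -0.05 to 0.01 for Zic2; at 8 h, -0.34 to 0.29 for Fgf5, -0.36 to 0.72 for Pou3f1 and -1.20 to 0.22 for Sox3; for Pou3f1, -0.54 to 0.53 at 12 h and -0.81 to 0.26 at 24 h. It gave -0.62 to 0.01 for Fgf5 from 4 to 8 h, -0.40 to 0.01 for Pou3f1 and -1.20 to 0.34 for Sox3 from 8 to 12 h, and slopes of -0.14 to 0.21 for Fgf5 and -0.04 to 0.21 for Zic2. For the B6 share it gave -0.15 to 1.74 for Otx2 at 4 h and 1.41 to 3.29 at 24 h, and, for Zic2, -0.13 to 0.47 at 8 h and -0.15 to 0.27 at 24 h. In B6 reads alone Zic2 stood at 0.16, 0.00 and 0.17 at 4, 8 and 12 h against 0 h, at 0.17 from 8 to 12 h and at -0.10 from 12 to 24 h; in Cast reads alone it stood at 0.13 from 4 to 8 h. Fgf5 at 8 h was -0.01 with limma voom. For the B6 share the replicate number did not pair libraries (r from 0.000 to 0.032), the replicate block left 0 calls, and Otx2 could not be tested at a minimum of 50 allelic reads. Without length scaling Otx2 ranked above Pou3f1 and Fgf5 above Sox3.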
